A study of Mus musculus with 12 samples.

Results

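The 35 genes described here drive or mark cell division, from entry into S phase to the separation of chromosomes in mitosis. They were chosen by symbol from a set of cell cycle and mitosis genes, and all 35 were found among the 54532 genes counted in each of 12 mouse liver libraries. RNA-sequencing was carried out on whole liver of male PPARγ flox/flox mice that were injected intraperitoneally at 8 weeks of age with an AAV8 vector and then fed a fast-food diet (FFD), rich in saturated fat, cholesterol and sucrose with fructose and glucose in the water, for 2 or 5 months. AAV8.TBG.PI.Cre.rBG expresses Cre recombinase from the hepatocyte-specific TBG promoter and gave the animals labelled KO, whereas control littermates received AAV8.TBG.PI.eGFP.WPRE.bGH and are called wild-type (WT), although they carry the same floxed alleles and the same viral serotype. Cre from this promoter leaves Pparg intact in macrophages, endothelial cells and other nonhepatocytes. Each of the 4 groups (WT and KO at 2 months, WT and KO at 5 months) held 3 libraries. All groups received the diet, so that nothing here compares FFD with chow. The p-values measure the spread between libraries, since the labels number the repeats without stating that each came from a separate mouse.

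Cell division is ordered by waves of transcription. In G1, cyclin D and then cyclin E activate kinases that free E2F1 from the retinoblastoma family, and E2F turns on genes for origin licensing (the MCM helicase) and for DNA synthesis. In G2, cyclins A and B, CDK1, Polo-like and Aurora kinases, spindle motors and checkpoint proteins accumulate, largely under the DREAM and MuvB complexes, which bind CHR elements in promoters together with neighboring CCAAT boxes. p21, the product of Cdkn1a and a target of p53, inhibits the cyclin-dependent kinases. Adult hepatocytes are mostly quiescent but can re-enter the cycle after injury, and many become polyploid, so that S phase genes and mitosis genes need not move together in liver. Dividing macrophages, endothelial cells and other nonparenchymal cells contribute to the same signal in whole tissue.

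Some promoters are shown so that the letters counted below can be seen in place. They belong to the members with a window whose adjusted p was smallest in the genotype comparisons. RefSeq windows (build GRCm38.p6), from 250 bases before to 50 bases after an annotated start, were found for 28 of the 35 members. The 6 sequences below read 5′ to 3′ on the strand of the gene. Capitals mark the CHR letters TTTGAA, the E2F-type letters TTCCCGC or TTGGCGC, the CCAAT box and the core of a p53 site (ACATGT repeated after 4 bases), each searched on both strands. Mki67 at chr7:135716330-135716629, Bub1b at chr2:118597961-118598260 and Top2a at chr11:99024140-99024439 held CHR letters. Ccnb1 at chr13:100786437-100786736 held no CHR letters in this window, and its E2F-type match overlapped its first CCAAT box. Rrm2 at chr12:24708004-24708303 held only a CCAAT box. The Cdkn1a window shown, chr17:29090729-29091028, is the one of its 2 windows nearest to the gene start in the deposited files, and it held the p53 core alone.
Mki67: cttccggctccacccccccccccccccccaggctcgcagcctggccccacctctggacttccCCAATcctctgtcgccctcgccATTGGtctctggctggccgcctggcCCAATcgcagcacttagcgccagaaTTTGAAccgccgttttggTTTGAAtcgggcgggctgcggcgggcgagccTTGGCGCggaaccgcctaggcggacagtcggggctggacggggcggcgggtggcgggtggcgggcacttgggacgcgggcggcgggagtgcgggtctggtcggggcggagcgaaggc
Bub1b: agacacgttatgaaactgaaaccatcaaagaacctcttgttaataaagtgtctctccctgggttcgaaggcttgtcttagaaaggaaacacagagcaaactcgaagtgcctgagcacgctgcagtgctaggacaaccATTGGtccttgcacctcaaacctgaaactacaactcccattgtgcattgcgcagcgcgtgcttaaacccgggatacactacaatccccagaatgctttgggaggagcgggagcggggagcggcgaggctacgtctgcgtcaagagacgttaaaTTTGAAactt
Top2a: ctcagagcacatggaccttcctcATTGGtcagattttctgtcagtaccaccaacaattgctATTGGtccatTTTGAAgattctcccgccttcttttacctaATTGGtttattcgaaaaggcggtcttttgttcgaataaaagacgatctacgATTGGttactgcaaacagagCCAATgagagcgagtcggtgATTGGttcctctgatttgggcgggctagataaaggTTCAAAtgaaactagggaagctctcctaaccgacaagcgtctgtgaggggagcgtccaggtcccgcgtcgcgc
Ccnb1: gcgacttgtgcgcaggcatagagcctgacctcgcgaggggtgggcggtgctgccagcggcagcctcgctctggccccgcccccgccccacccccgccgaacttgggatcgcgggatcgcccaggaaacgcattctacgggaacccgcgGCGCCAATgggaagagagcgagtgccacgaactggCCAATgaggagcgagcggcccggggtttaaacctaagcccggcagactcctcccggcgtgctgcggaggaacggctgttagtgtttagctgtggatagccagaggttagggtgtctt
Rrm2: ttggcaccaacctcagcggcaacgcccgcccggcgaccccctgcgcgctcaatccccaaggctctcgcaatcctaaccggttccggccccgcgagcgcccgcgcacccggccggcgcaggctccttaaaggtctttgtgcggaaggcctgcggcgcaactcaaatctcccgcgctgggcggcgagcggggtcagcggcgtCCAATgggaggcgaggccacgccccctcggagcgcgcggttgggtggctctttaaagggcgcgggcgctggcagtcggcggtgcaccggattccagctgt
Cdkn1a: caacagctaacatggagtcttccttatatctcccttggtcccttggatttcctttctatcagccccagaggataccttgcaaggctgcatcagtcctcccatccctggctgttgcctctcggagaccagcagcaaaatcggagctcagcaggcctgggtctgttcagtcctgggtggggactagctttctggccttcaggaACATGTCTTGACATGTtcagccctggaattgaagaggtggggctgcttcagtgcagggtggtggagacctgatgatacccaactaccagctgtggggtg

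CHR letters stood in the windows of 12 of the 17 G2 and M members with a window (70.588%), in 1 of the 11 G1 and S members (9.091%, Mcm2) and in 20.2257% of all 27025 genes with a window. E2F-type letters showed the reverse order, in 4 of 11 G1 and S members (36.364%: Mcm3, Mcm5, Mcm6 and Mcm7), in 3 of 17 G2 and M members (17.647%: Ccnb1, Cdk1 and Mki67) and in 7.7891% of all genes. CCAAT boxes were found in 15 of 17 G2 and M members (88.235%), 7 of 11 G1 and S members (63.636%) and 41.0583% of all genes. The p53 core was looked for after the Cdkn1a window had been read. It was present in 1 of the 28 members and in 4 of the 27025 genes (0.0148%). CHR, E2F-type and CCAAT letters were each found in members of both sets, and the difference between the sets was not tested. These counts describe letters in a window, and members with more than 1 window were counted once.

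Library totals ran from 16367775 to 27452284 counts. Pparg was not lower in the libraries labelled KO. Its CPM (counts scaled to a common library total) was 38.8, 41.4 and 37.7 in WT and 50.5, 66.5 and 52.1 in KO at 2 months, and 36.9, 41.4 and 37.1 in WT and 86.6, 93.0 and 75.1 in KO at 5 months, so that it was higher in KO at both times (log2 0.52, adjusted p = 0.0309, and log2 1.15, adjusted p = 2.57e-06). The counts cover the whole gene, and which exons the reads came from was not analysed here, so they do not test whether the floxed segment was lost. For the protein, the study reported by Western blot an efficient and lasting loss of PPARγ in KO livers at both times. Of 10 hepatocyte markers, 9 were matched, and their summed CPM was between 62844 and 95286 in every library, as the tissue label implies. Among neutrophil and erythroid markers, Ly6g was at 0 in 10 libraries, Mpo in 4 and Hemgn in 9, and Elane, Retnlg and the T cell marker Cd3d were at 0 in 1 or 2.

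WT replicate 1 at 2 months stood apart from its group. It was the lowest of the 3 WT libraries for 34 of the 35 members, and the lowest of all 12 libraries for 18. Its summed CPM over the members was 145.5, against 296.8 and 298.4 in WT replicates 2 and 3, 199.6 to 217.1 in KO at 2 months, 243.3 to 258.5 in WT at 5 months and 234.8 to 293.7 in KO at 5 months. Its members therefore summed to 48.9% of the mean of the other 2 WT libraries. Genes of the same pathways were also low in it. It was the lowest of the 3 WT libraries for 33 of 36 further mitosis genes, whose summed CPM was 68.0% of that of the other 2, and for 23 of 30 further replication genes, although their sum was 92.6%. The sum of 22 p53 target genes was 66.2%, that of cholangiocyte markers 63.2%, macrophage markers 83.5%, endothelial markers 82.2% and hepatocyte markers 115.0%. The cholangiocyte sum was mostly Spp1 (1094 to 5130 counts per library, against at most 198 for the next marker, Sox9). Of the 6 cholangiocyte markers, 2 were lowest and 1 was highest in WT replicate 1 among the WT libraries. Results at 2 months are given with and without it. It was set apart because these members were low in it. Leaving it out therefore raises the WT values of nearly all members at 2 months by construction, and counts without it are not a separate test.

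**Figure D1:**
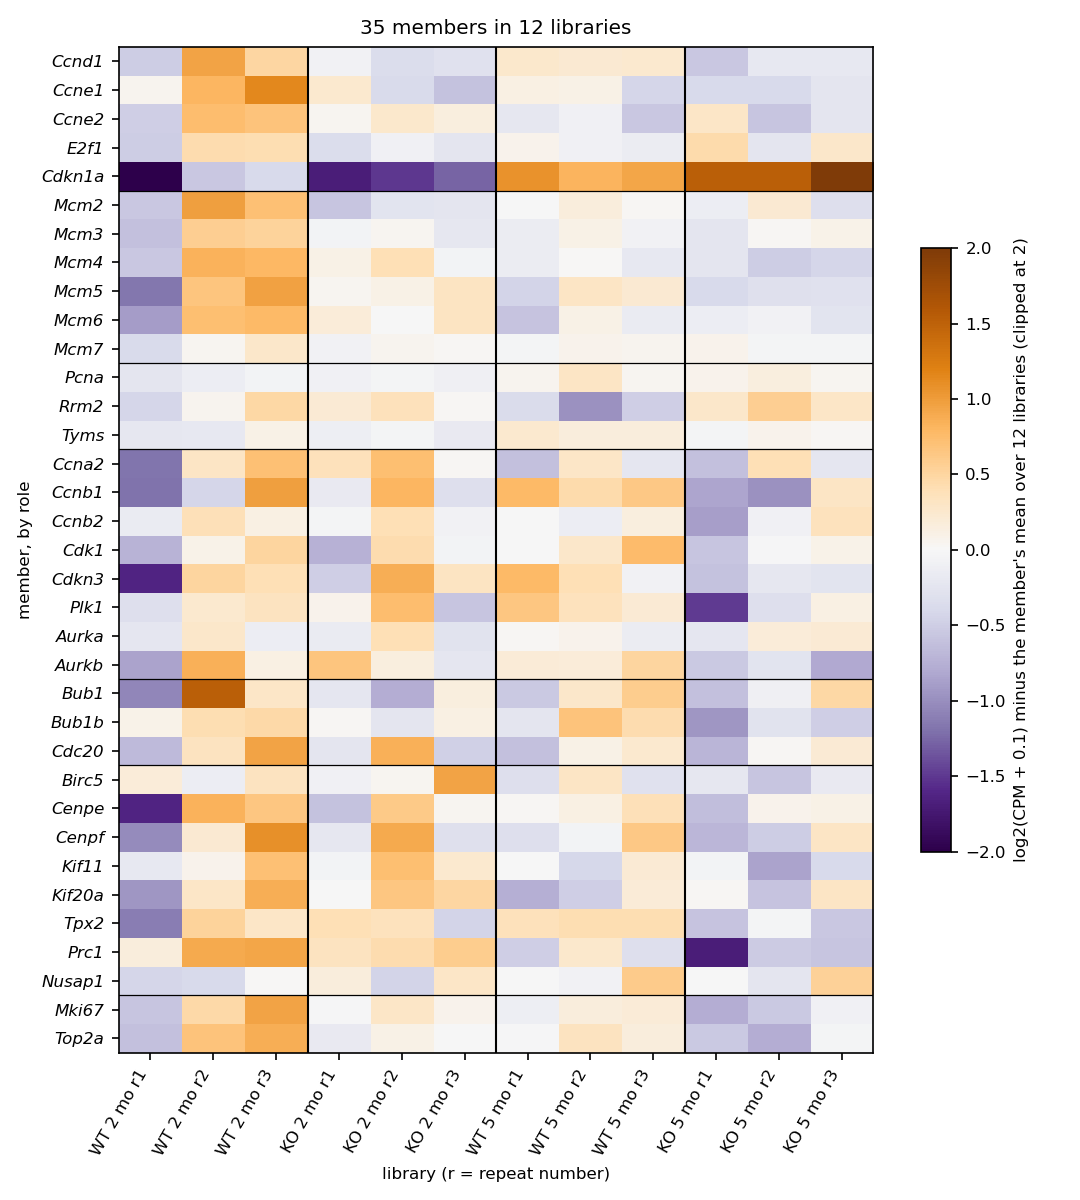
Heat map of the 35 members (rows, by role) in the 12 libraries (columns), as log2(CPM + 0.1) minus the mean of each member over all libraries, with color clipped at 2 on either side. The first column, WT replicate 1 at 2 months, is low in nearly every row, and Cdkn1a changes from low at 2 months to high at 5 months.

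Levels per kilobase of gene length differed widely among the members. Averaged over all libraries, Pcna, the sliding clamp of DNA polymerase, was highest at 13.7 CPM per kilobase, followed by Cdkn1a at 9.46 and Ccnd1 (cyclin D1) at 8.51. Mcm7 at 3.46 and Rrm2 at 3.36 came next, and these neighbors differed by less than the spread of Rrm2 between groups (2.12 in WT and 4.21 in KO at 5 months). The mitotic members were far lower. Mki67, the gene of the proliferation antigen Ki-67, was at 0.724, Cdk1 at 0.534, Plk1 at 0.484, Ccnb1 (cyclin B1) at 0.271, and Cenpf, a kinetochore protein, was lowest at 0.0870. In raw counts, 18 of the 35 members had a median under 50 per library and 7 fell below 10 in at least 1 library, so that a low mitotic gene could pass the test only with a large difference. The lowest count was 2 (Cdkn3, a phosphatase that acts on CDK1) and no member was at 0. Genes annotated or named as pseudogenes of 5 members had counts: over all libraries, Ccnb2-ps had 195 against 449 for Ccnb2, Ccnb1-ps 46 against 257 for Ccnb1, Pcna-ps2 81 against 7575 for Pcna, and those of Mcm7 and Tyms 9 and 1. Ccne2 overlaps Ints8 on the opposite strand over 5622 bases and Kif20a overlaps Cdc23 over 2315, so that the counts of these members are less certain.

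At 5 months, 3 of 34 members tested passed the threshold (adjusted p below 0.05, edgeR quasi-likelihood test with Benjamini-Hochberg adjustment over all genes tested), with Rrm2 higher and Ccnd1 and Tpx2 lower in KO. Across all genes, 18.4% passed in either direction and 9.51% passed as lower in KO, so that the share of members called was not above the background. The members leaned downward: 25 of 34 log2 fold changes were below 0, with a median of -0.25 against -0.01 over all genes tested. Of the 21 G2 and M members, 20 were tested and 17 of these were below 0, with a median of -0.40. The 6 MCM members had a median of -0.06. Cdkn3 had too few counts to be tested. In whole liver, fewer cells of a type and less RNA per cell cannot be told apart.

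**Figure D2:**
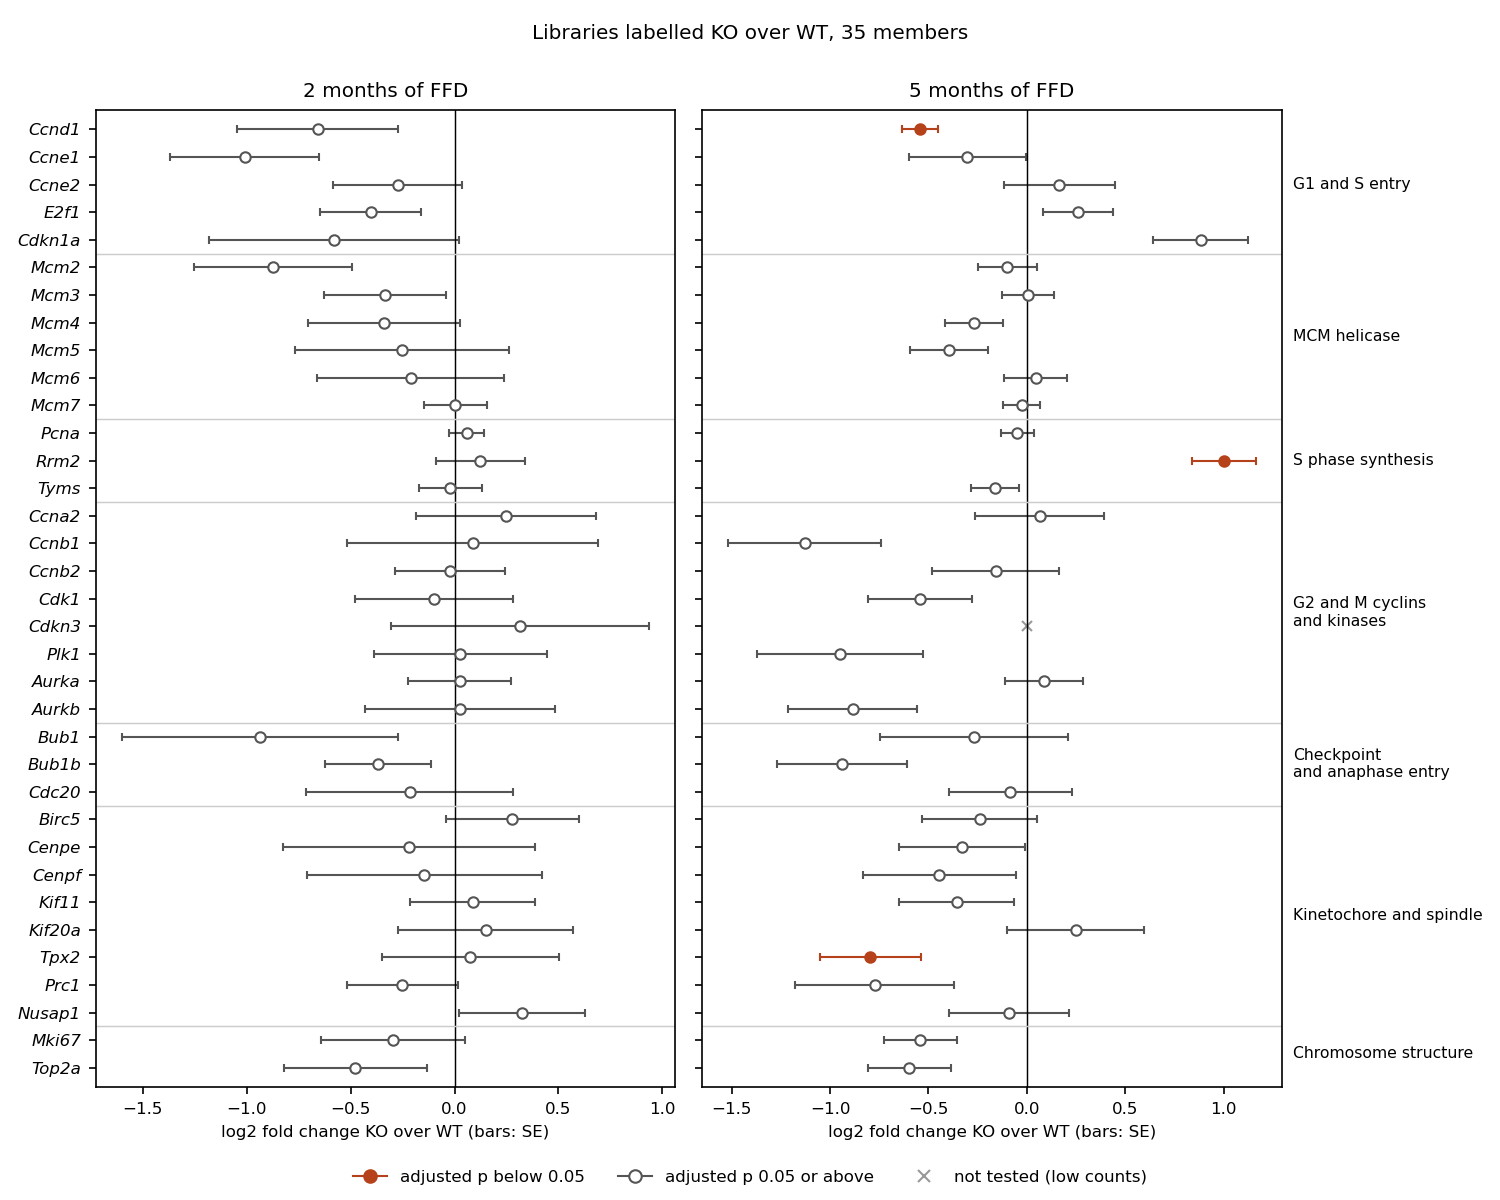
Log2 fold change of KO over WT for each member (points, with SE as bars) after 2 months (left) and 5 months (right) of FFD, by role. Filled points passed adjusted p below 0.05: none at 2 months, and Ccnd1, Rrm2 and Tpx2 at 5 months, where 17 of 20 tested G2 and M members lie below 0.

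Rrm2, the small subunit of ribonucleotide reductase, which makes deoxynucleotides for DNA synthesis (ENSMUSG00000020649, mm10 chr12:24708241-24714146), was the member with the firmest genotype difference. At 5 months its CPM was 6.88, 4.49 and 6.27 in WT and 10.8, 13.3 and 10.9 in KO. Every KO library was above every WT library, by 2.00-fold on average (log2 1.00, SE 0.161, adjusted p = 0.000911). This call was kept under all 14 alternatives tried. At 2 months its CPM was 6.55, 9.27 and 12.4 in WT and 10.4, 11.5 and 9.01 in KO, and the groups overlapped. The other members that supply S phase gave no such difference at 5 months: Pcna was at 33.7 to 40.7 CPM in WT and 33.5 to 36.4 in KO, and Tyms, thymidylate synthase, at 8.31 to 8.77 and 7.23 to 7.80, without overlap but not past the threshold (adjusted p = 0.411).

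Ccnd1, the cyclin that couples growth signals to CDK4 and CDK6 in G1 (ENSMUSG00000070348, mm10 chr7:144929931-144939925), was lower in KO at 5 months. Its CPM was 45.9, 44.7 and 45.4 in WT and 26.0, 33.5 and 33.5 in KO. The WT libraries differed by little more than 1 CPM, and all KO libraries lay below them (log2 -0.54, SE 0.0922, 1.46-fold lower, adjusted p = 0.00134). The call was lost when all 12 libraries shared an estimate of the spread (adjusted p = 0.298), to which the WT libraries at 2 months (26.8, 73.5 and 54.0 CPM) contributed. Ccnd1 overlaps Oraov1 on the opposite strand over 1771 bases, and with no statement that counting used the strand, reads there cannot be assigned with certainty.

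Tpx2, the spindle assembly factor that activates Aurora A (ENSMUSG00000027469, mm10 chr2:152847964-152895321), was lower in KO at 5 months. Its CPM was 2.49, 2.57 and 2.56 in WT and 1.23, 1.85 and 1.26 in KO, from 42 to 49 and 20 to 36 counts. The groups did not overlap and the fold was 1.74 (log2 -0.80, SE 0.257), but the call sat at the threshold (adjusted p = 0.0479). It was lost in 9 of 14 alternatives, in which adjusted p reached 0.169. Leaving out any WT library gave adjusted p = 0.0606, 0.130 and 0.132 for replicates 1, 2 and 3, and leaving out KO replicate 1 or 3 gave 0.142 and 0.141.

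Among the mitotic regulators, the members nearest to the threshold at 5 months were all lower in KO. Ccnb1, the cyclin that drives entry into mitosis, was at 1.78, 1.40 and 1.62 CPM in WT and 0.519, 0.462 and 1.26 in KO (log2 -1.13, SE 0.387, adjusted p = 0.0606). Bub1b, the checkpoint kinase BubR1, was at 1.36, 2.68 and 2.25 CPM in WT and 0.803, 1.33 and 1.14 in KO (log2 -0.94, adjusted p = 0.0663). For both genes all KO libraries lay below all WT libraries. Aurkb, the kinase of the chromosomal passenger complex, showed the same separation, at 1.24, 1.23 and 1.57 CPM in WT and 0.708, 0.872 and 0.568 in KO (log2 -0.89, adjusted p = 0.0814). Its partner Birc5 (survivin) overlapped between groups, at 1.48 to 2.33 and 1.23 to 1.64 CPM. Plk1, Polo-like kinase 1, was at 1.60, 1.28 and 1.15 CPM in WT and 0.283, 0.769 and 1.07 in KO (log2 -0.95, adjusted p = 0.143). Cdk1, the kinase of mitotic entry, and Ccnb2 overlapped between groups, and so did Ccna2 (cyclin A2) and Aurka, at 3.13 to 3.68 CPM in WT and 2.98 to 4.04 in KO.

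The chromosome members gave similar values. Top2a, the topoisomerase that untangles replicated DNA, was at 4.92, 6.30 and 5.59 CPM in WT and 3.40, 2.87 and 4.86 in KO, without overlap (log2 -0.60, SE 0.209, adjusted p = 0.0663). Mki67 was at 6.40, 7.76 and 7.94 CPM in WT and 4.01, 4.72 and 6.50 in KO, where the highest KO library exceeded the lowest WT library (log2 -0.54, SE 0.187, adjusted p = 0.0635). Prc1, which bundles the central spindle, was at 1.01, 1.75 and 1.15 CPM in WT and 0.378, 0.975 and 0.947 in KO (adjusted p = 0.221). The motors Kif11 and Kif20a, the kinetochore proteins Cenpe and Cenpf, and Nusap1, Bub1 and Cdc20 overlapped between groups. Over the 20 G2 and M members tested, 7 lay wholly below WT and 0 wholly above, where 19.0% of all genes tested were wholly below and 15.9% wholly above. At an unadjusted p below 0.05 with at least a 1.3-fold difference, 8 of 34 members tested were lower and 2 higher, where 9.89% of all genes were lower and 7.07% higher by the same rule.

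Cdkn1a was 1 of those 2, and it was the opposite of the mitotic members. At 5 months its CPM was 44.6, 37.3 and 40.4 in WT and 61.2, 61.5 and 102.0 in KO. All KO libraries were above all WT libraries (log2 0.88, SE 0.241, 1.84-fold), but adjusted p was 0.0693. KO replicate 3 was well above the other KO libraries. Without it the difference was smaller and passed the threshold (log2 0.60, adjusted p = 0.000967), and with any of the other libraries left out adjusted p ran from 0.0645 to 0.210. DESeq2 (adjusted p = 0.00839) and the fit with a replicate block (0.0445) also passed. E2f1, which turns on S phase genes, and the cyclin E genes Ccne1 and Ccne2 overlapped between groups, as did Mcm2, Mcm3, Mcm5, Mcm6 and Mcm7. Mcm4 lay below WT in all KO libraries (6.79 to 7.88 CPM against 5.44 to 6.61) without passing the test (adjusted p = 0.238).

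Cell type markers moved with the same groups at 5 months. Of 12 macrophage markers, 11 passed as lower in KO, and their summed CPM was 1819.7 to 2141 in WT and 931.0 to 1174 in KO. Of the other lists, 3 of 8 stellate cell markers, 4 of 8 endothelial markers and, among those with enough counts to be tested, 2 of 3 neutrophil, 2 of 4 B and plasma cell and 1 of 8 T and NK cell markers passed as lower, and none of these as higher. The cholangiocyte and erythroid lists leaned the other way, with 1 of 6 and 1 of 5 tested called higher, 0 called lower and medians of 0.47 and 0.54. Hepatocyte markers summed to 63031 to 68559.6 CPM in WT and 83917 to 95286 in KO, with 2 of 9 called higher. Alb was the largest part of the hepatocyte sum at both times (571242 to 1706260 counts per library, against at most 212302 for the next marker, Apob). Of the 9 markers, 7 had log2 fold changes above 0 and 2 below, with a median of 0.22. The summed CPM of the 21 G2 and M members was 41.4, 49.2 and 51.5 in WT and 28.9, 35.2 and 43.2 in KO. The part of these cells in the lower mitotic counts was not tested.

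**Figure D3:**
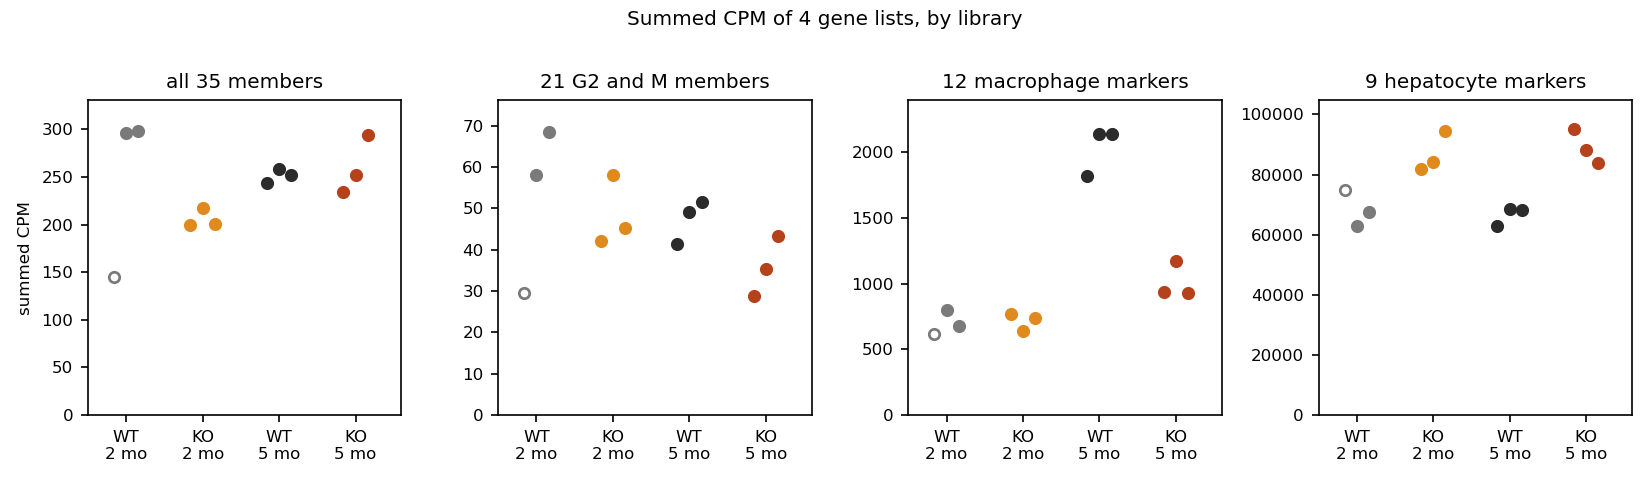
Summed CPM per library (points) of all 35 members, the 21 G2 and M members, 12 macrophage markers and 9 hepatocyte markers in the 4 groups. The open point is WT replicate 1 at 2 months, at 145.5 over all members, and the macrophage sum at 5 months is 1819.7 to 2141 in WT and 931.0 to 1174 in KO. Alb is the largest part of the hepatocyte sum.

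At 2 months, 0 of 35 members passed the threshold, against 3.56% of all genes in either direction and 1.78% as lower in KO. At an unadjusted p below 0.05 there was 1 member, Ccne1, where 18.9% of all genes were below it, and the DESeq2 Wald test called 0. With the replicate number as a block, 5.61% of all genes passed and again 0 members, with a median of -0.096. No member separated the groups, where 12.0% of all genes lay wholly below WT and 12.1% wholly above. Of the 35 log2 fold changes, 21 were below 0, with a median of -0.15 against 0.00 over all genes. Of the G2 and M members, 10 of 21 were below 0 (median 0.03), and of the G1 and S entry members all 5 (median -0.58). With the block, 22 of 35 members were below 0. So were 11 of 21 G2 and M members (median -0.0055) and all 5 G1 and S entry members (median -0.39). Ccne1 was at 1.58, 2.73 and 3.50 CPM in WT and 1.81, 1.14 and 0.968 in KO (log2 -1.01, SE 0.357, adjusted p = 0.162).

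The count at 2 months turned on WT replicate 1. Without it, 11 of 35 members passed, all lower in KO, against 5.25% of all genes called as lower in the same fit, and 32 of 35 log2 fold changes were below 0, with a median of -0.46. Because the library was chosen for its low members, this difference from the background follows in part from the choice. Without that library the G2 and M members had 19 of 21 below 0, all but Birc5 and Nusap1, with a median of -0.30, so that their even split was not kept. The 11 were the entry genes Ccnd1, Ccne1, E2f1 and Cdkn1a, the helicase subunits Mcm2, Mcm3, Mcm4, Mcm5 and Mcm6, and Mki67 and Top2a. Leaving out any other library at 2 months gave 0 calls. The median of all members then ran from -0.27 (without KO replicate 2) to 0.08 (without WT replicate 3).

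Mcm2, a subunit of the helicase that unwinds DNA ahead of the fork, showed the effect of WT replicate 1 most clearly. Its CPM was 5.79 in WT replicate 1, 16.9 and 14.1 in WT replicates 2 and 3, and 5.75, 7.13 and 7.19 in KO. WT replicate 1 was thus level with KO, and the other 2 WT libraries were above all KO libraries. With replicate 1 the log2 difference was -0.88 (SE 0.381, adjusted p = 0.289), and without it -1.21 (SE 0.149, adjusted p = 0.000497). Cdkn1a gave 3.17, 14.5 and 16.1 CPM in WT and 6.47, 7.36 and 8.75 in KO. Its KO libraries lay between WT replicate 1 and the others, with log2 -0.58 (adjusted p = 0.675) in the full comparison and -1.01 (adjusted p = 0.00149) without that library. Ccnd1 at 2 months changed from -0.66 (adjusted p = 0.452) to -0.97 (adjusted p = 0.00495). Which of the WT libraries is typical of the group cannot be told from 3.

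Stellate cell markers at 2 months summed to 498.2 to 572.2 CPM in WT and 401.8 to 409.7 in KO, with 1 of 8 called lower. Macrophage markers overlapped (617.4 to 798.6 and 641.3 to 766.4 CPM), with 1 of 12 called, as higher. Hepatocyte markers were at 62844 to 74883 CPM in WT and 81882 to 94366 in KO, with 1 of 9 called higher. No endothelial or cholangiocyte marker was called. Without WT replicate 1, 3 stellate cell markers were called lower, 2 macrophage markers higher and 1 lower, and 5 hepatocyte markers higher. With the replicate block 2 stellate cell markers were called lower. In both of these fits 1 endothelial and 1 cholangiocyte marker were also called lower. Their part in the 2-month values was not tested.

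Between 2 and 5 months of diet, 46.4% of all genes tested passed the threshold in WT and 44.9% in KO, and diet time, age and any difference in when the libraries were made cannot be told apart. These comparisons use the libraries of the genotype comparisons again and are not independent of them. In WT, 3 of 35 members passed: Pcna was higher at 5 months, and Rrm2 and Prc1 were lower. Pcna (ENSMUSG00000027342, mm10 chr2:132249162-132253314) went from 27.7, 30.0 and 31.7 CPM to 34.2, 40.7 and 33.7, all above the earlier libraries (log2 0.28, SE 0.0966, adjusted p = 0.0344). The call was lost on library size alone (adjusted p = 0.163), in DESeq2 (0.0583), and without WT replicate 1 or 2 at 2 months (0.0728 and 0.0686) or WT replicate 2 at 5 months (0.159).

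Rrm2 in WT was lower at 5 months, at the CPM given above (log2 -0.68, SE 0.241, adjusted p = 0.0410), although the groups overlapped at 6.55 and 6.88. The call was lost without WT replicate 2 or 3 at 2 months (adjusted p = 0.0808 and 0.163) and without WT replicate 1, 2 or 3 at 5 months (0.0543, 0.144 and 0.0838). Prc1 in WT was at 1.64, 2.78 and 2.84 CPM at 2 months (log2 -0.90, SE 0.326, adjusted p = 0.0427) and the call was lost without WT replicate 2 or 3 at 2 months (0.122 and 0.131) or WT replicate 1 or 3 at 5 months (0.122 and 0.131). Cdkn1a rose above all earlier WT libraries (3.61-fold, log2 1.85, SE 0.577) without passing the test (adjusted p = 0.0581). In all, 3 members lay wholly above or below between the times, where 56.8% of all genes did. They were Cdkn1a, Pcna and Tyms, each above. Without WT replicate 1 at 2 months the number of members called was 15, with Cdkn1a higher and 14 lower, against 22.8% of all genes called as lower. The 14 included Mcm2 to Mcm6, Ccnd1, Ccne1, Ccne2 and Rrm2. WT replicate 1 was left out for its low members, so lower values at 5 months follow in part from that choice. Without WT replicate 2 at 2 months the number of members called was 0.

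In KO, 6 of 33 members passed between the times, a smaller share than the 44.9% of all genes. Cdkn1a was higher and Prc1, Mki67, Mcm4, Mcm5 and Mcm6 were lower at 5 months. Cdkn1a (ENSMUSG00000023067, mm10 chr17:29090976-29100727) made the largest change of any member in any comparison, from 6.47, 7.36 and 8.75 CPM to 61.2, 61.5 and 102.0 (9.82-fold, log2 3.30, SE 0.281, adjusted p = 0.000522). This call was kept under all 14 alternatives. Prc1 (ENSMUSG00000038943, mm10 chr7:80294450-80316259) went from 1.86, 2.00 and 2.23 CPM to 0.378, 0.975 and 0.947 (2.70-fold lower, log2 -1.43, SE 0.347, adjusted p = 0.00607), and its call was kept in all 13 alternatives that tested it. The whole of Prc1 lies within 21810 bases that Rccd1 covers on the opposite strand, and Rccd1 had 611 counts over all libraries against 382 for Prc1, so that the source of these reads is uncertain.

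**Figure D4:**
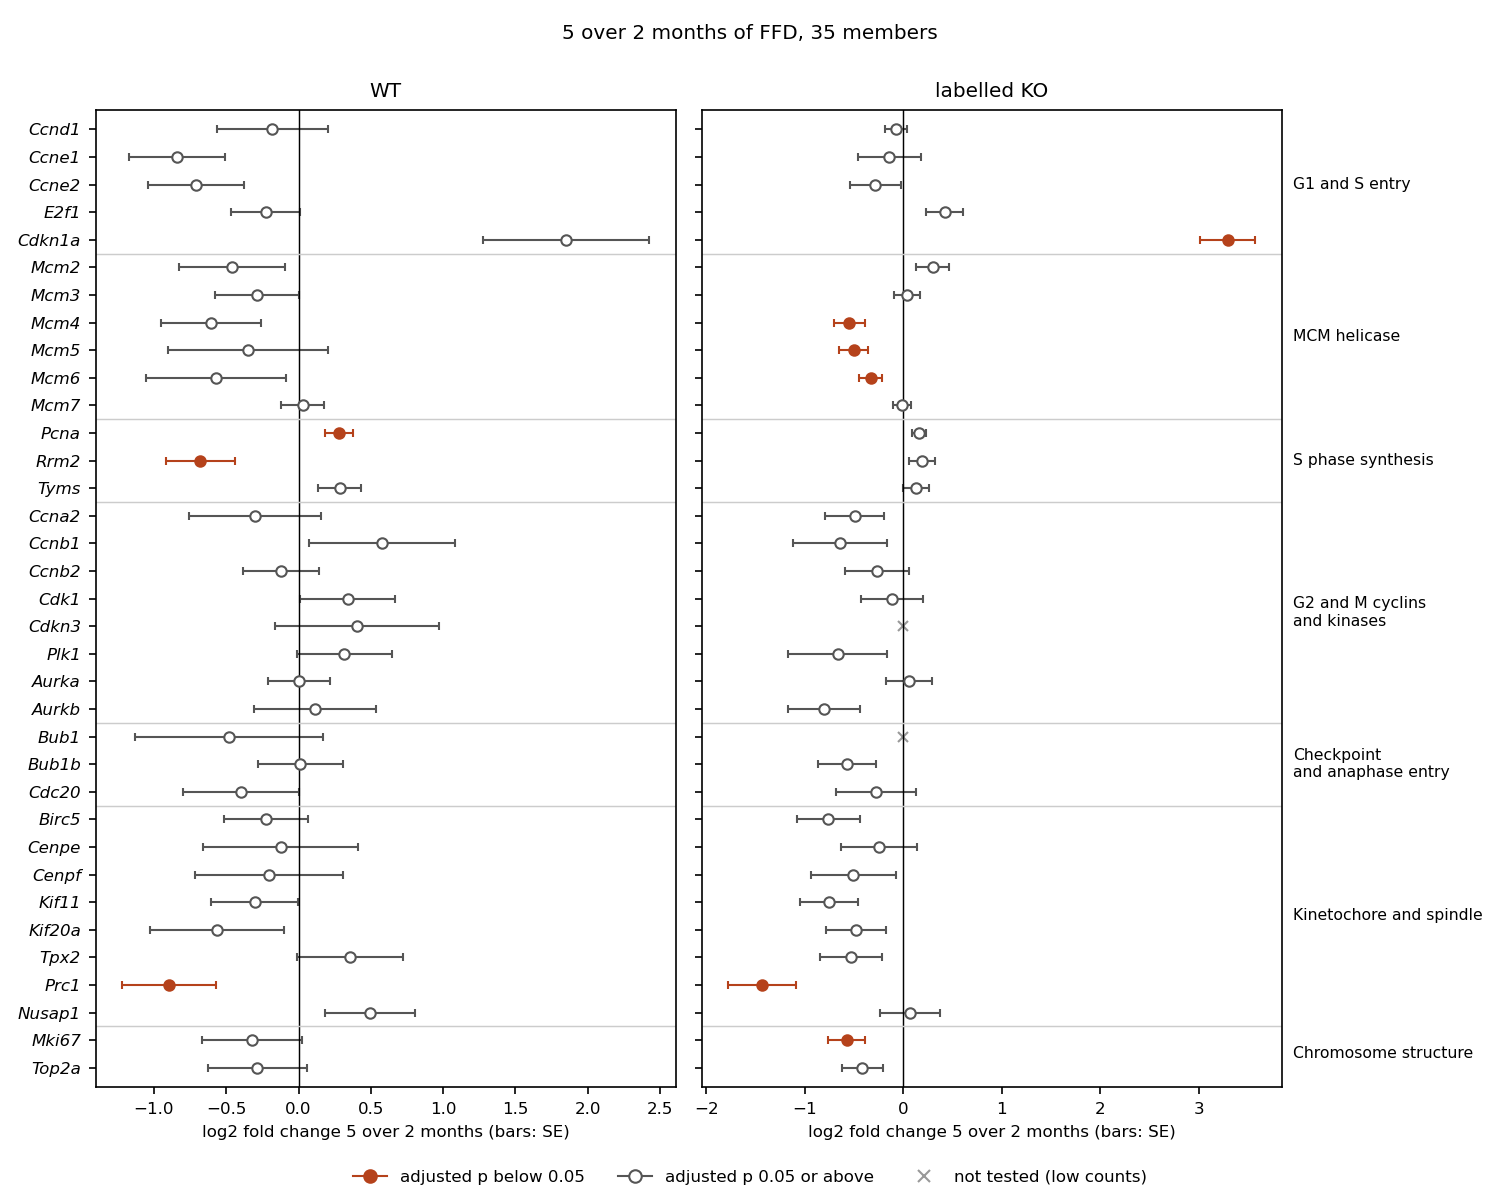
Log2 fold change of 5 over 2 months for each member (points, with SE as bars) in WT (left) and in libraries labelled KO (right), by role. Cdkn1a is the highest point on both sides, at 1.85 in WT and 3.30 in KO, and crosses at 0 mark members with too few counts to test.

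Mki67 in KO (ENSMUSG00000031004, mm10 chr7:135689784-135716361) went from 6.84, 8.44 and 7.26 CPM to 4.01, 4.72 and 6.50, all below (log2 -0.58, SE 0.188, adjusted p = 0.0274). Without KO replicate 2 at 2 months, or KO replicate 1 or 2 at 5 months, adjusted p was 0.0839, 0.112 and 0.0866. The helicase subunits fell by less. Mcm4 (ENSMUSG00000022673, mm10 chr16:15623897-15637400) went from 8.39, 10.3 and 7.49 CPM to 6.61, 5.44 and 5.75 (log2 -0.55, adjusted p = 0.0148), and was lost without KO replicate 2 at either time (0.0618 at 2 months and 0.0566 at 5 months). Mcm5 (ENSMUSG00000005410, mm10 chr8:75109569-75128439) went from 6.27, 6.56 and 7.71 CPM to 4.63, 4.92 and 4.99 (log2 -0.51, adjusted p = 0.0183), and was lost without KO replicate 3 at 2 months (0.0704) or KO replicate 1 at 5 months (0.0621). Mcm6 (ENSMUSG00000026355, mm10 chr1:128331590-128359664) went from 12.9, 11.4 and 14.2 CPM to 10.3, 10.8 and 9.54 (log2 -0.33, adjusted p = 0.0366), and was lost in 9 of 14 alternatives, up to adjusted p = 0.509. In each of these genes the 5-month KO libraries were below all 2-month KO libraries. Mcm7 and Mcm3, of the same hexamer, overlapped between the times.

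Of 19 G2 and M members tested over time in KO, 17 were below 0 (median -0.51, against -0.01 over all genes). Of these members 5 (26.3%) lay wholly below the 2-month libraries, near the 27.5% of all genes tested that did. Over all members 10 did not overlap, in either direction, where 55.6% of all genes did not. Kif11, the motor that separates spindle poles, came next at log2 -0.76 (SE 0.293, adjusted p = 0.0541), followed by Birc5 at -0.76 (SE 0.322, adjusted p = 0.0746) and Aurkb at -0.81 (SE 0.366, adjusted p = 0.0929). Bub1 and Cdkn3 had too few counts to be tested. When all 12 libraries shared the spread, Cdkn1a and Prc1 alone of the 6 were kept.

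**Figure D5:**
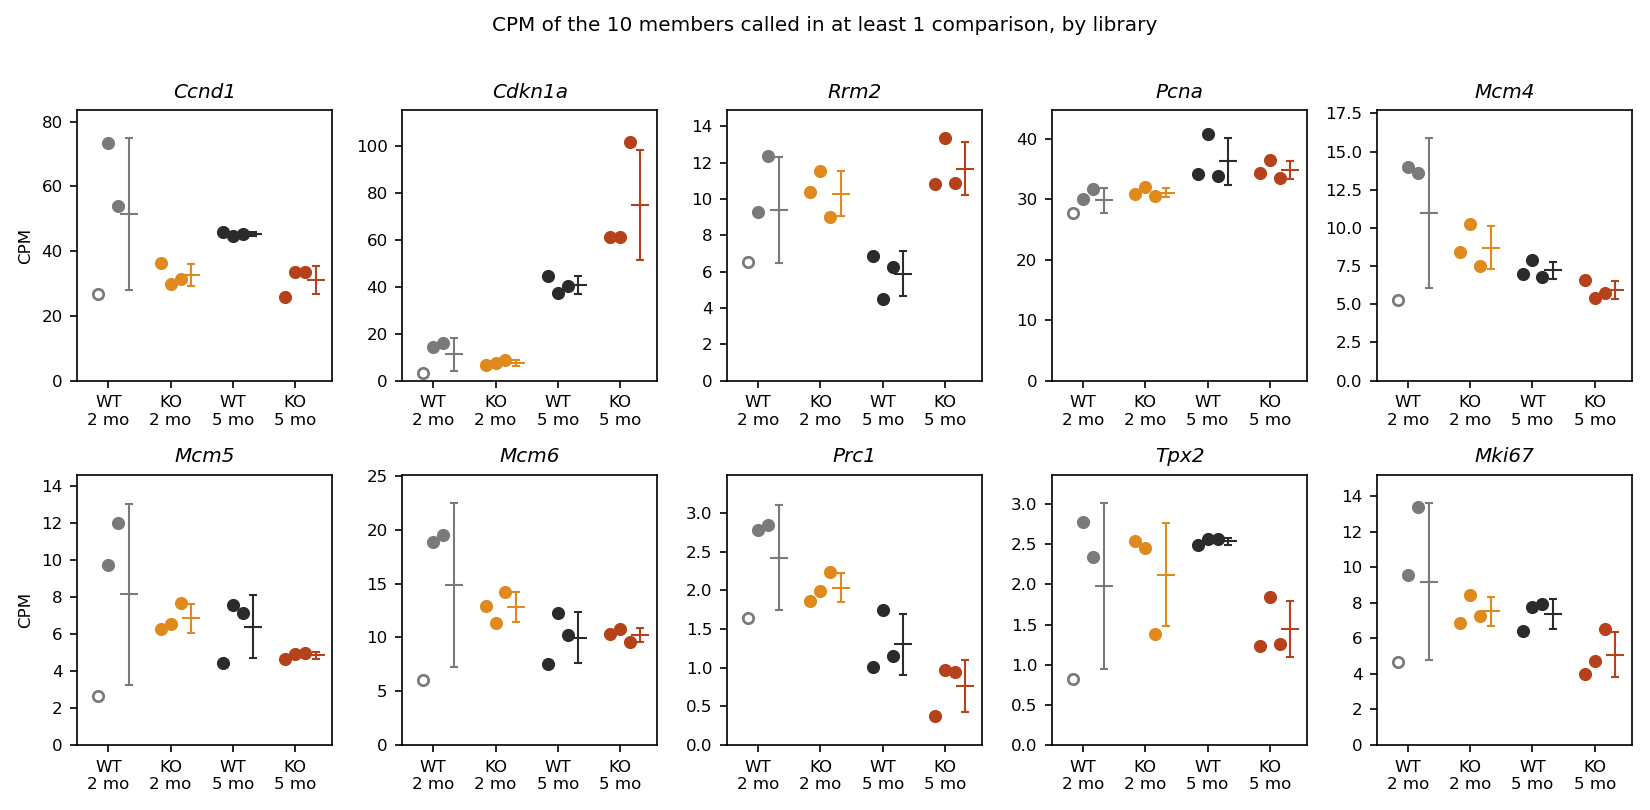
CPM of the 10 members called in at least 1 comparison, by group (points are libraries, bars the mean ± SD of 3, and the open point is WT replicate 1 at 2 months). Rrm2 separates KO from WT at 5 months, Ccnd1 and Tpx2 the reverse, and Cdkn1a reaches 61.2 to 102.0 in KO at 5 months.

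Whether the genotype difference itself changed between 2 and 5 months was tested with an interaction contrast over all 12 libraries. No member of 35 passed, against 1.57% of all genes. At an unadjusted p below 0.05 there was 1 member, against 14.9% of all genes. This was Rrm2, whose KO over WT difference was larger at 5 months by 0.87 on the log2 scale (SE 0.292, adjusted p = 0.162). DESeq2 called 0. Thus the members called at 5 months and not at 2 months were not shown to differ between the times. Without WT replicate 1 at 2 months, 3 of 35 passed, against 3.65% of all genes: Cdkn1a (log2 1.89, adjusted p = 0.0209), Mcm2 (1.10, adjusted p = 0.0100) and Rrm2 (1.07, adjusted p = 0.0200), each with KO higher relative to WT at 5 than at 2 months. That library was left out for its low members, so these calls follow in part from the choice.

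Genes of the same pathways outside the members were read from 4 lists of other replication, mitosis and G1 genes and of p53 targets. At 2 months 0 of 29 replication genes, 0 of 35 mitosis genes, 0 of 23 G1 regulators and 0 of 22 p53 targets tested passed, with 5, 2, 3 and 3 at an unadjusted p below 0.05, each a smaller share than the 18.9% of all genes. With the replicate block, 1 of 22 p53 targets passed, Gdf15 (log2 -0.84, adjusted p = 0.0141), where 5.61% of all genes passed. Without WT replicate 1, 24 of 30 replication genes and 31 of 35 mitosis genes were below 0. Across all genes, 5.25% were called lower in KO in that fit. Of the 30 replication genes Rrm1, the large subunit of ribonucleotide reductase, Uhrf1, Hells, Chaf1a and Gins2 were then called lower and Rfc5 higher. In each other list 1 gene was called lower, a smaller share than over all genes. They were Incenp of 35 mitosis genes, Ccnd2 of 23 G1 regulators and Plk2 of 22 p53 targets. These genes were named after their values were seen, in a fit that left out a library chosen for its low cell cycle genes. At 5 months, where 18.4% of all genes passed, 3 of 29 other mitosis genes tested were lower and 1 higher in KO, with a median of -0.23 and 23 of 29 below 0. Anln, the anillin of the cleavage furrow, was at 1.78, 2.10 and 2.14 CPM in WT and 0.897, 0.821 and 1.01 in KO (log2 -1.13, adjusted p = 0.0131). Stmn1, a microtubule-destabilizing protein, was lower (log2 -0.65, adjusted p = 0.00714), and Spc24, a kinetochore subunit, was higher, at 18.3, 13.6 and 15.9 CPM in WT and 27.8, 26.5 and 25.8 in KO (log2 0.76, adjusted p = 0.000282). Without WT replicate 2 the adjusted p of Stmn1 was 0.0512 and that of Anln 0.0591, and without WT replicate 3 that of Anln was 0.0653.

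Over the 29 other replication genes tested at 5 months, the median log2 difference between KO and WT was 0.00. Of 22 G1 regulators, Rbl2, the pocket protein p130, was higher (log2 0.28, adjusted p = 0.0396) and Myc lower (log2 -0.52, adjusted p = 0.0446) in KO. This was a smaller share than the 18.4% of all genes called. The calls of Rbl2 and Myc were lost without WT replicate 2 or 3 or KO replicate 3, where adjusted p was 0.0715, 0.180 and 0.144 for Rbl2 and 0.129, 0.194 and 0.143 for Myc.

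Of 22 p53 targets, 4 were higher and 1 lower in KO at 5 months (median 0.07), a share not far from the 18.4% of all genes called. Bbc3, which encodes the proapoptotic protein PUMA, was at 9.25, 7.58 and 10.6 CPM in WT and 16.5, 19.8 and 16.04 in KO (log2 0.94, SE 0.134, adjusted p = 0.000381). Gadd45g, a stress-induced growth inhibitor, was also higher (log2 0.68, adjusted p = 0.00740). Pmaip1, which encodes NOXA, was lower, at 4.15, 3.50 and 3.40 CPM in WT and 1.61, 1.90 and 1.77 in KO (log2 -1.05, adjusted p = 0.00425). The p53 list thus held genes that moved with Cdkn1a and against it. Whether p53 controls each listed gene in liver, Gadd45g among them, was not tested.

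Over time, 6 of 22 p53 targets were higher and 2 lower at 5 months in WT, and 9 were higher and 1 lower in KO. In these comparisons 46.4% and 44.9% of all genes passed, so that the share of p53 targets called, 8 of 22 in WT and 10 of 22 in KO, was below the background in WT and near it in KO. Bax, a proapoptotic BCL2 family member, rose in both, by log2 0.67 (adjusted p = 0.00116 in WT and 0.000187 in KO). Phlda3, an inhibitor of AKT, went in KO from 2.38, 1.48 and 2.01 CPM to 7.41, 6.57 and 8.84 (log2 1.94, adjusted p = 3.27e-05), and Gadd45g in WT from 5.46, 4.33 and 5.69 to 13.8, 15.2 and 14.2 (log2 1.48, adjusted p = 2.35e-05). Of 23 G1 regulators, 7 were lower and 5 higher in WT and 8 lower and 3 higher in KO, shares near the 46.4% and 44.9% of all genes. Cdk6, a kinase partner of cyclin D, fell in both (log2 -0.88, adjusted p = 8.09e-06 in WT and log2 -0.44, adjusted p = 0.00131 in KO).

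Other mitosis genes gave 2 lower and 2 higher of 34 tested over time in WT, and 6 lower and 1 higher of 33 in KO. These were smaller shares than the 46.4% of all genes called in WT and 44.9% in KO. In KO, Kif23, a motor of the central spindle, went from 2.12, 2.28 and 2.42 CPM to 0.472, 1.13 and 0.758 (log2 -1.54, adjusted p = 0.00265). Of 29 other replication genes, 4 were lower and 1 higher in WT and 4 lower and 5 higher in KO, also smaller shares than over all genes. Pole, the catalytic subunit of DNA polymerase epsilon, went in KO from 5.02, 5.02 and 4.02 CPM to 1.89, 1.49 and 1.58 (log2 -1.49, adjusted p = 0.000189), and Mcm10, an initiation factor, was lower in both (log2 -0.69, adjusted p = 0.0136 in WT, lost without WT replicate 2 at 5 months at 0.0531, and log2 -0.80, adjusted p = 0.000480 in KO). Over the same times macrophage markers rose in WT (11 of 12, from 617.4 to 798.6 CPM in sum to 1819.7 to 2141) and in KO 6 rose and 2 fell. Endothelial markers fell, 5 of 8 in WT and 6 of 8 in KO. Their part in the time differences was not tested.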

How the data were processed

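Total RNA from liver was sequenced (Illumina NovaSeq) and aligned to mm10. The study's methods name STAR, whereas the submitters' processing notes list HISAT2. The program that made the counts, its gene models and its strand setting are not given in the sources used here. The deposited values were raw counts per gene, not normalized, and the deposited gene length was used only to scale levels per kilobase. Totals were 16367775 to 27452284 counts per library.

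Groups came from the sample labels. Each comparison was fitted on its own 6 libraries (the interaction on all 12) with edgeR 4.0.16 in R 4.3.3, using TMM factors, filterByExpr, the robust quasi-likelihood test (2-sided) and Benjamini-Hochberg adjustment over all genes tested. A call is an adjusted p below 0.05. Fold changes are on the log2 scale, with SE from the F statistic, and CPM uses the TMM-scaled totals. The scripts were tested on simulated data. Alternatives were DESeq2 1.42.0 (size factors and Wald test), scaling by total counts only, keeping all genes, a minimum of 10 counts per library, an unadjusted p below 0.05 with 1.3-fold, all 12 libraries in 1 fit, a replicate block and each library left out in turn.

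The labels number the repeats. Over the 5000 most abundant genes, same-numbered libraries deviated together at 2 months (correlations 0.218, 0.323 and 0.140 across genes, against -0.273 to 0.113 for other pairs). Each same-numbered value exceeded every other, so the libraries behaved as pairs there. The values at 2 months are from the fit without the block, so their SE and adjusted p do not use the pairing. Values with the block are given beside them where they change a call or the number of members below 0. The fits without WT replicate 1 used no block and kept KO replicate 1. Same-numbered libraries did not deviate together at 5 months (-0.0806, -0.0586 and -0.172).

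All 35 members are named. Of the further lists, up to 3 genes per list and comparison are named, those with the smallest adjusted p among called genes without overlap. Promoters are shown for the 6 members with the smallest adjusted p in a genotype comparison that have a RefSeq window. The members and the lists were chosen with earlier results of these data known. The hepatocyte marker Tf was not matched. Of the further lists, the result of 1 gene that this rule names and the level of 1 marker are not reported here.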

Additional observations from a re-analysis of the deposited data

Results flagged for a closer look

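Cdk6, a kinase partner of cyclin D in G1 and not a member of the list of 35, was flagged because its genotype difference was not the same at both times in the interaction test. Its CPM was 57.2, 59.9 and 54.7 in WT and 50.2, 50.9 and 42.1 in KO at 2 months, and 30.9, 31.7 and 31.0 in WT and 35.4, 35.4 and 35.05 in KO at 5 months. KO was thus below WT at 2 months and above WT at 5 months in every library, and the log2 interaction was 0.44 (SE 0.106, adjusted p = 0.0470 in edgeR). The call was lost in 11 of 19 alternatives, with adjusted p from 0.0195 to 0.125. It was lost without WT replicate 2 or 3 at 2 months (0.104 and 0.0579), KO replicate 1 or 3 at 2 months (0.0632 and 0.0875), and any library at 5 months (0.0762, 0.114 and 0.125 for WT replicates 1, 2 and 3, and 0.0803, 0.104 and 0.104 for KO).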

How the results depend on the processing

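With few counts for the mitotic members and 3 libraries per group, a difference that misses the threshold is not shown to be absent, and a call can rest on 1 library. Whether depth or the spread between libraries kept a member from passing was not tested. The number of members called at 2 months was 0, and 1 with an unadjusted p and 1.3-fold or with no filter, and it ran from 0 to 11 when libraries were left out in turn (11 without WT replicate 1). At 5 months it was 3, and 10 with an unadjusted p and 1.3-fold, 6 with no filter, and 2 to 6 with a library left out (6 without WT replicate 1 or KO replicate 3). For 5 over 2 months in WT it was 3, and 6 with no filter, 5 with all 12 libraries in 1 fit, and 0 to 15 with a library left out (1 without each WT replicate at 5 months in turn, 2 without WT replicate 3 at 2 months). In KO it was 6, and 2 with all 12 libraries in 1 fit. For the interaction it was 0, and 1 with an unadjusted p and 1.3-fold or with no filter, and 0 to 3 with a library left out. With the replicate block the paired fits called 0 members at 2 months, 4 at 5 months, 3 over time in WT, 5 in KO and 0 in the interaction, and the block changed no call of a member at 2 months, the comparison in which the numbers paired the libraries. Elsewhere the libraries shared only a number, and the block at 5 months dropped Tpx2 and added Cdkn1a and Mki67.

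Of 1378 values of single genes under alternatives, 1207 kept direction and side of the threshold, 80 lost the call, 64 gained it and 27 turned direction. The turned values were all of members that had no call in that comparison. At 2 months on library size alone, Pcna was -0.021 and Tpx2 -0.010, and with a library left out Tpx2 ran from -0.29 to 0.40, Rrm2 from -0.077 to 0.37, Mcm5 from -0.66 to 0.14, Mcm6 from -0.58 to 0.038 and Mki67 from -0.61 to 0.080. At 5 months, Mcm6 was -0.028 when scaled by library size alone. With a library left out it ran from -0.12 to 0.22, and Pcna from -0.096 to 0.045. Over time in WT, Tpx2 ran from -0.0080 to 0.67, Ccnd1 from -0.49 to 0.16, Mcm5 from -0.76 to 0.039 and Mki67 from -0.63 to 0.051, and over time in KO Ccnd1 ran from -0.14 to 0.045. In the interaction, Mcm4 was -0.026 with the replicate block, and with a library left out Mcm4 ran from -0.15 to 0.39, Mcm5 from -0.54 to 0.26, Mcm6 from -0.0035 to 0.62, Mki67 from -0.63 to 0.066 and Ccnd1 from -0.24 to 0.42. The cause was not tested.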
